A study of Mus musculus with 14 samples.

Results

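The Zic family was followed at single-cell resolution in the Atoh1 lineage of the mouse hindbrain. Its members Zic1, Zic2, Zic4 and Zic5 were taken by gene symbol from the 31054 rows that all 14 libraries share, and all 4 were found in every library. The cells were TdTomato-positive, sorted by FACS from C57BL/6J mice and profiled with the 10x Genomics 3′ v3.1 chemistry, so a value counts UMIs (unique molecular identifiers), which mark single captured transcripts. At E14.5 and at E18.5, whole hindbrains were collected from 3 control embryos (Atoh1 Cre/+; Rosa lsl-tdTomato/+) and from 3 littermates that carried the S193A allele opposite the Cre knock-in (Atoh1 Cre/S193A; Rosa lsl-tdTomato/+, called Atoh1S193A/-), with 1 embryo per library. At P5, dissected pontine nuclei (PN) of control pups, 11 to 13 of them pooled per library, gave 2 libraries. Because Cre replaces the coding region of Atoh1, the controls also carried a null copy, and the contrast is a hypomorphic allele against a wild-type one over that null. The reporter marks every cell with a history of Atoh1-driven Cre, so the sorted cells include cerebellar granule cells, unipolar brush cells and other rhombic lip derivatives besides the PN lineage.

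The Zic proteins are C2H2 zinc finger transcription factors whose finger domain is related to that of the Gli factors, which transmit hedgehog signals. They are known from the dorsal neural tube and the cerebellar primordium, where ZIC1 binds the Atoh1 enhancer, and Zic1 is needed in precerebellar neurons for the normal position of pontine cells. Zic2 is known from the retina, where it directs axons to the same side of the brain through the receptor EphB1. In the mouse genome Zic1 lies beside Zic4 and Zic2 beside Zic5, each pair on opposite strands.

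On GRCm38 (mm10, GENCODE M21 gene models), Zic1 (ENSMUSG00000032368) occupies chromosome 9, 91358058 to 91365810, on the minus strand, and Zic4 (ENSMUSG00000036972) 91362413 to 91389348 on the plus strand. Their gene models overlap over 3398 bases, which begin 4355 bases from the 3′ end of Zic1 and end 23538 bases from the 3′ end of Zic4. Per the study's methods the counts were made by Cell Ranger with default parameters, and its default for 3′ libraries counts reads in the sense direction, which tells genes on opposite strands apart. Zic5 (ENSMUSG00000041703) lies on chromosome 14, 122456795 to 122465677, on the minus strand, and Zic2 (ENSMUSG00000061524) at 122475435 to 122479852 on the plus strand, with 9757 bases between their starts.

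The sequence upstream of a gene of each pair is shown, because the members of a pair had the most similar levels across clusters when the 3 stages were pooled. ATOH1 is a basic helix-loop-helix factor and such factors bind E-boxes, written CANNTG, a motif that reads as CANNTG on both strands and was searched in the window on the gene's own strand. Capitals mark the match in the RefSeq promoter sequences (GRCm38.p6), which were cut at the annotated gene start and run 5′ to 3′ on the strand of the gene. Promoter entries were matched for 3 of the 4 genes, and that of Zic4 is not shown.
Zic1, chr9:91365811-91366018, minus strand: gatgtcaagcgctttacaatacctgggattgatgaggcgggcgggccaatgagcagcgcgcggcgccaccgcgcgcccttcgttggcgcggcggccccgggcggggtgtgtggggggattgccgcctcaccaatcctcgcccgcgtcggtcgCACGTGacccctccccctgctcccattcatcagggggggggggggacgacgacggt
Zic5, chr14:122465678-122465908, minus strand: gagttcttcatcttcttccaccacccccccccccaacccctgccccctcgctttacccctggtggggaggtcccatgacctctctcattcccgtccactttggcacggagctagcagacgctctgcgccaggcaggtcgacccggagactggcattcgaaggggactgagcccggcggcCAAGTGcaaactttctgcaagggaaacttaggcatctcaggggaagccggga
Each window held 1 match, CACGTG for Zic1 and CAAGTG for Zic5. Of 32851 mouse promoters, 60.3% held a CANNTG in a window of the length used for Zic1 and 63.6% in one of the length used for Zic5, so a match is common. The Zic1 window is rich in CpG, with 26 CpG dinucleotides and 71.2% G and C, and 4.82% of promoters held as many CpG dinucleotides (median 4.0). The Zic5 window held 11 CpG dinucleotides and 62.3% G and C, and 32.7% of promoters held as many (median 5.0).

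The libraries held 108239001 to 236964126 UMIs each, and 80250 of 150188 barcodes were kept (at least 1000 genes, under 5% mitochondrial UMIs, doublets removed). No pair of libraries shared more than 0.346% of its barcodes. Levels are given in CPM, the UMIs of a gene summed over the cells of a group in a library and scaled to a sum of 1000000, as mean ± SD over libraries. At E14.5 and E18.5, PN-like clusters had at least 4 of Hoxb2 to Hoxb5, Pax6 and Barhl1 above the mean of the clusters, Pax6 always detected. Lhx2 and Reln (E14.5) or En2 and Eomes (E18.5) had to be low. These clusters held 7506 and 3254 cells. At P5 another rule was used, with Slc17a6 and Hoxb3 present and Neurod1 low, which gave 8212 cells. Zic genes entered neither the clustering nor the names of cell states, but the state names rest on marker lists that the study made from these libraries, and differences between states are therefore given as descriptions without a test. Atoh1 itself was read in all 12 embryonic libraries, with 55.4 to 137 CPM in control and 86.2 to 143 CPM in Atoh1S193A/- cells at E14.5, and the S193A allele is a point mutation that a count does not check.

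Together the 4 genes made up 0.0848% to 0.132% of all UMIs at E14.5, 0.199% to 0.225% at E18.5 and 0.122% to 0.132% at P5. The ends of transcripts were counted without correction for capture efficiency, so shares among the 4 genes are shares of UMIs. Zic1 was the largest share in each library.

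At E14.5 the PN-like cells run from dividing progenitors (Ccnd1, Top2a) over Atoh1-high intermediate progenitors and migrating neurons-1 and -2 (Nhlh1, Robo3) to differentiated neurons (Mapt, Syt4), and Zic levels moved along this order. Of Zic1, control progenitor-like cells had 649 ± 59.7 CPM, intermediate progenitor-like cells 616 ± 40.6, migrating neuron-1-like cells 770 ± 64.7, migrating neuron-2-like cells 1034 ± 78.2 and differentiated neuron-like cells 1262 ± 139 CPM (n = 3). Progenitor-like libraries overlapped with both neighboring states, and the last 3 states did not overlap. Zic4 had the same top, at 602 ± 55.1 CPM in differentiated neuron-like cells against 267 to 394 CPM in the other states.

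Zic2 and Zic5 reached their highest level 1 state earlier. Migrating neuron-2-like cells had 366 ± 21.2 CPM of Zic2, differentiated neuron-like cells 330 ± 14.6 and progenitor-like cells 164 ± 30.3 CPM (n = 3), and the first of these ranges overlapped with the second. Zic5 stood at 468 ± 33.7 and 481 ± 31.3 CPM in migrating neuron-1-like and -2-like cells, ranges that overlapped, and at 303 ± 60.7 CPM in differentiated neuron-like cells, below both. All 4 genes were higher in migrating neuron-2-like than in progenitor-like cells in each of the 3 control libraries.

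**Figure D1:**
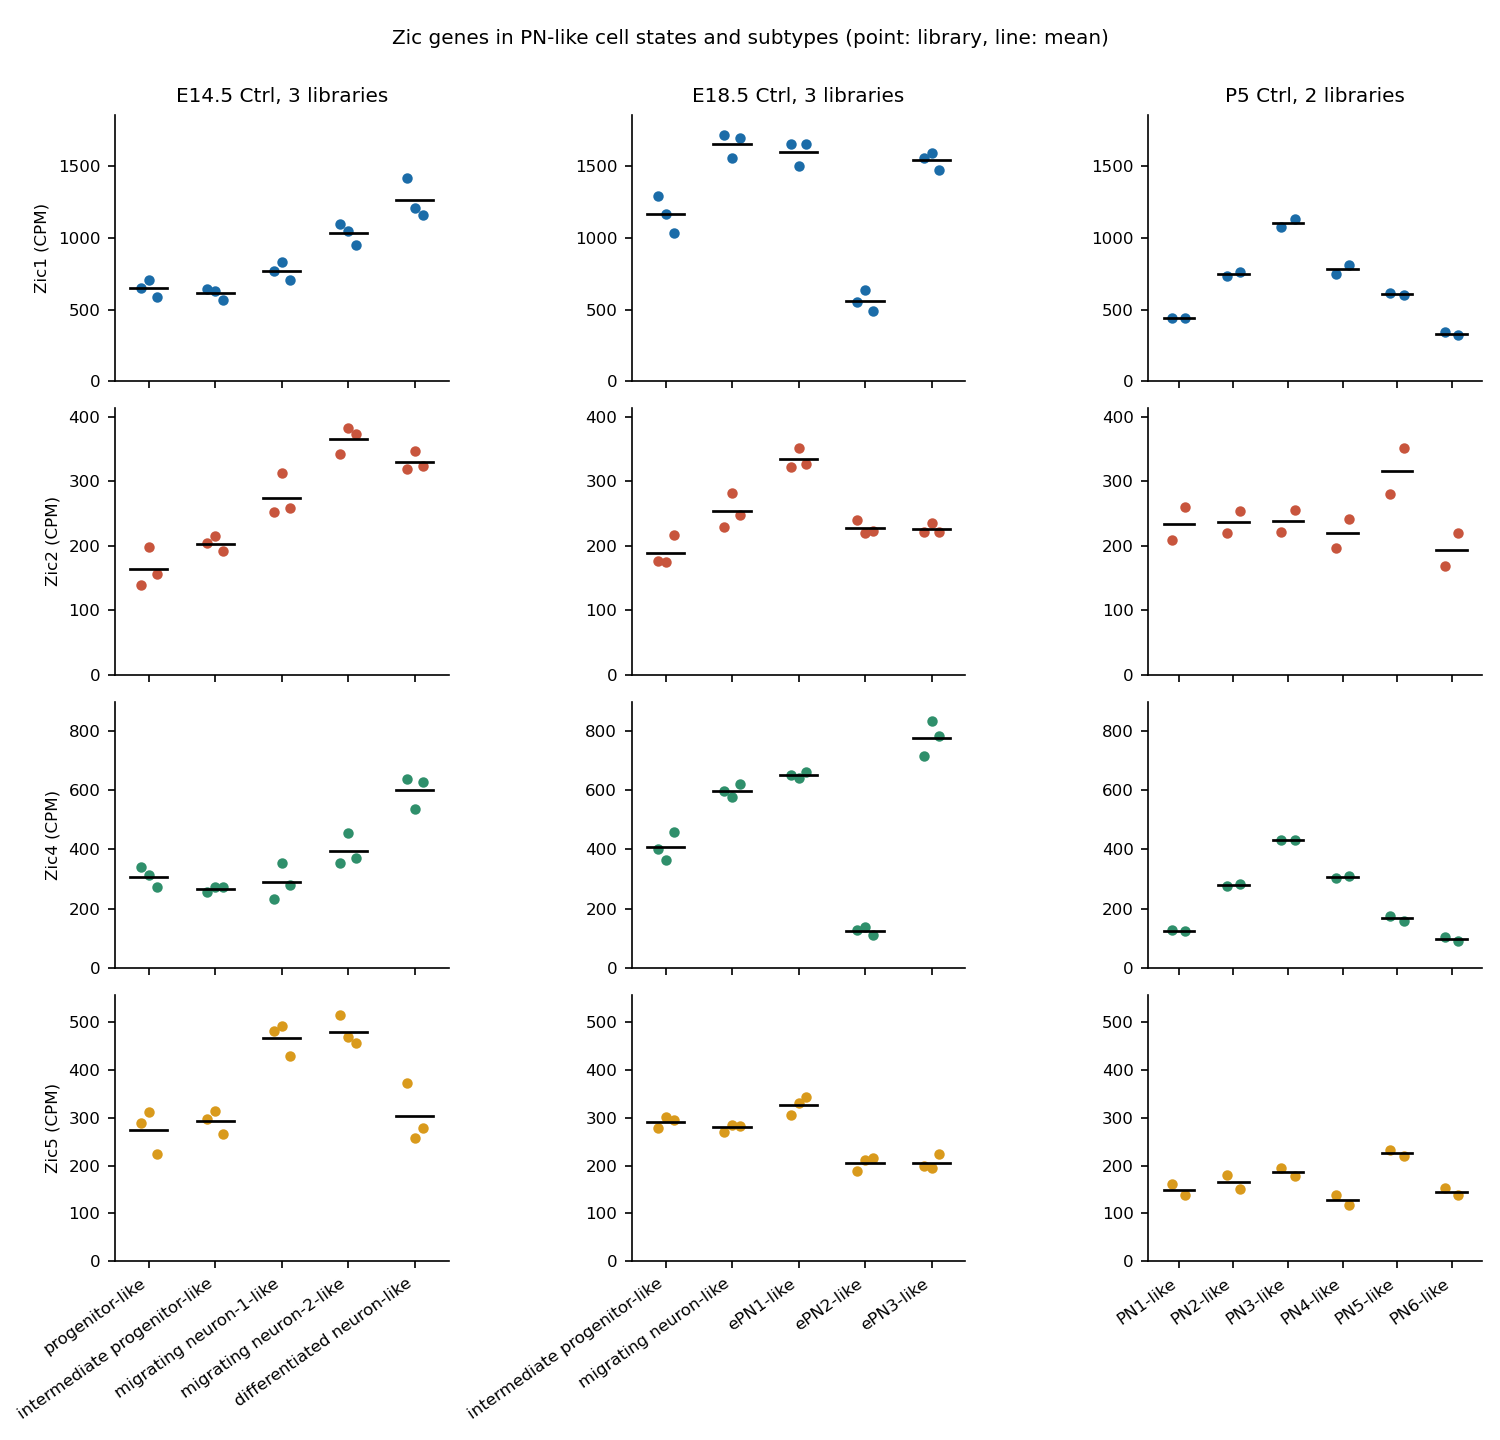
Zic levels in PN-like states and subtypes of control mice, with 1 row of panels per gene and 1 column per stage, CPM of summed UMIs on the vertical axis (1 scale per gene), points for libraries and lines for the mean. Zic1 and Zic4 were low in ePN2-like, PN1-like and PN6-like cells, while Zic2 and Zic5 varied less at E18.5 and P5. At E14.5 the highest mean was 2.23-fold the lowest for Zic2 and 2.05-fold for Zic1.

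By E18.5 most control PN-like cells fell into intermediate progenitors, migrating neurons and young subtypes that the study names ePN1 (Prox1, Kctd12, Cdkn1c), ePN2 (Sst, Ephb1, Ebf1), ePN3 (Hoxb5, Hoxc4) and ePN4. Clusters of 144, 85 and 68 control cells stayed unnamed, with Zic1 at 1150 to 1154 CPM. Zic1 was at 1658 ± 88.7 CPM in migrating neuron-like, 1604 ± 88.7 in ePN1-like, 1543 ± 63.6 in ePN3-like and 558 ± 71.9 CPM in ePN2-like cells (n = 3). The first 3 groups overlapped, and each ePN2-like library lay below them. The ePN1-like value joined unlike clusters, with Zic1 at 1774 and 1715 CPM in those led by Kctd12 and Dab1 and at 579 ± 7.60 CPM (n = 2) in one led by Nr2f2, a marker of the later PN5. The Nr2f2 cluster held 8, 12 and 20 cells in the 3 control libraries, and the first was under the minimum of 10 cells. Zic4 was at 667, 816 and 101 CPM in these clusters, in the same order. Zic4 was spread more widely, at 716, 833 and 783 CPM in the 3 libraries of ePN3-like, 649.9, 641 and 663 CPM of ePN1-like and 129, 137 and 111 CPM of ePN2-like cells. These groups did not overlap, although without the Nr2f2 cluster the ePN1-like libraries (719, 736.3 and 735.7 CPM) overlapped with ePN3-like ones, and the mean in ePN3-like cells was 6.20-fold that in ePN2-like cells. Ephb1, which acts below Zic2 in retinal axons, is among the markers that name ePN2, and Zic2 there was at 227 ± 11.4 CPM, overlapping with ePN3-like (226 ± 7.71) and migrating neuron-like cells (253 ± 26.8). The ePN2-like clusters were unlike in Zic2, which was at 323 ± 48.9 CPM (n = 2) in that led by Ebf1 and Sst and at 222, 204 and 198 CPM (n = 3) in those led by Gas7 and Ephb1, by Etv1 and by Fam19a1. Zic2 and Zic5 varied least over the E18.5 groups with 3 libraries, by 1.76-fold and 1.59-fold between the highest and lowest mean, and both were highest in ePN1-like cells, at 334 ± 16.1 and 327 ± 19.2 CPM. In the 18 ePN4-like cells of the 1 control library with enough cells, Zic1 was at 1043 and Zic4 at 609 CPM.

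At P5 most control PN-like cells fell into 6 subtypes, over which Zic1 and Zic4 varied more than Zic2 and Zic5. The cells outside them formed unnamed clusters with Zic1 at 316 to 1175 CPM, the largest of which, with 729 cells, was at 492 CPM. Zic1 was at 1106 ± 41.8 CPM in PN3-like, 781 ± 46.8 in PN4-like, 749 ± 18.46 in PN2-like, 609 ± 9.20 in PN5-like, 441 ± 0.252 in PN1-like and 331 ± 14.3 CPM in PN6-like cells (n = 2). Neighbors in this order did not overlap, except PN4 and PN2. Zic4 kept that order, from 432 ± 0.332 CPM in PN3-like to 126 ± 1.00 in PN1-like and 97.3 ± 8.86 CPM in PN6-like cells, a 4.44-fold span. The PN6-like value joined 2 unlike clusters, with Zic1 at 203 ± 6.13 CPM in that led by Igf1 and Etv1 and 494 ± 26.9 CPM in that led by Efna5 and Cxcl14, and Zic4 at 42.8 and 167 CPM (n = 2). PN1, the Sst and Ebf1 subtype, shares these markers with ePN2, and PN3, with Prox1 and Cdkn1c, shares its markers with ePN1. Zic1 and Zic4 were higher in PN3-like than in PN1-like cells in both libraries, by 2.51-fold and 3.43-fold on average, as was Zic5 by 1.25-fold. Zic2 was higher in 1 of 2 libraries (0.98-fold and 1.06-fold). The PN3-like clusters were unlike in Zic2, which was at 328 CPM in that led by Gstm1, Cdkn1c and Prox1 but at 178 and 172 CPM in those led by Alcam and Kctd12 and by Ezr and Gad2, while the PN1-like clusters had 249.8 and 222 CPM. Zic2 and Zic5 were highest in PN5-like cells (Nr2f2), at 316 ± 50.3 and 226 ± 9.10 CPM, and lowest at 194 ± 37.2 CPM in PN6-like and 128 ± 14.8 CPM in PN4-like cells, respectively.

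With each cell thinned to 5000 UMIs, Zic1 was detected in 90.2% of PN-like cells at P5, Zic2 in 64.4%, Zic4 in 62.7% and Zic5 in 49.8%. Microglia-like cells, which do not derive from the rhombic lip, gave 20.6%, 2.30%, 7.33% and 3.41%, shares that are read as background and were uneven between the libraries (28.8% and 12.5% for Zic1). Median depth before thinning was 27600 and 30339.5 UMIs in PN-like and 10925 and 11464 in microglia-like cells.

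Outside the PN-like cells, Zic1 reached higher levels than within them. At E18.5 unipolar brush cell-like cells (Eomes, Lmx1a, Calb2) had 2060 ± 117 CPM and granule lineage-like cells 888 ± 29.1 CPM of Zic1 (n = 3). The highest level at that stage, 3350 ± 47.6 CPM, was in an unnamed cluster led by Bcl11b and Lmx1a, and at P5 in one led by C130073E24Rik and Gm2694 that also carried Cbln1 and Bcl11b (3269 ± 242 CPM, n = 2). Zic4 was at 1150 and 948 CPM in these clusters, its highest level at either stage. Zic2 and Zic5 were also highest in the Bcl11b and Lmx1a cluster at E18.5, at 631 ± 19.9 and 721 ± 48.7 CPM. Unipolar brush cell-like cells followed with 512 ± 3.56 CPM of Zic2 and 700 ± 30.0 CPM of Zic5, each above the PN-like and granule lineage-like levels. Cells given the same name at E14.5 had 296 ± 15.6 CPM of Zic2 and 342 ± 95.2 CPM of Zic5. Whether they are the same cell type as those of E18.5 was not tested. PN-like cells of E14.5 had the highest mean of the named classes for each of the 4 genes. Zic5 in granule lineage-like cells (366 ± 21.8 CPM at E18.5) exceeded the level in PN-like cells (244 ± 7.57 CPM) in each library, whereas Zic4 was lower there (266 ± 18.1 against 489 ± 9.39 CPM).

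Several Atoh1-lineage neurons at E14.5 had little Zic message. Clusters led by Kcnip2, Foxb1, Foxp2, C1ql1, Tcf7l2 and Adarb2 had mean Zic1 levels of 17.3 to 45.5 CPM, below each PN-like cluster of that stage, the lowest of which had 630 CPM when all cells were clustered and 532 CPM when PN-like cells were clustered alone, and Zic2 and Zic5 of 1.00 to 8.81 and 3.29 to 9.70 CPM. Others differed between the pairs. A pair of clusters led by Hoxb5 had Zic1 at 270 and 197 CPM with Zic4 at 89.0 and 44.9, but Zic2 at 9.10 and 4.84 and Zic5 at 4.23 and 3.26 CPM. A cluster led by Sst and Pcdh9 had Zic1 at 812 ± 172 CPM, Zic4 at 303, Zic2 at 127 and Zic5 at 36.3 CPM.

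**Figure D2:**
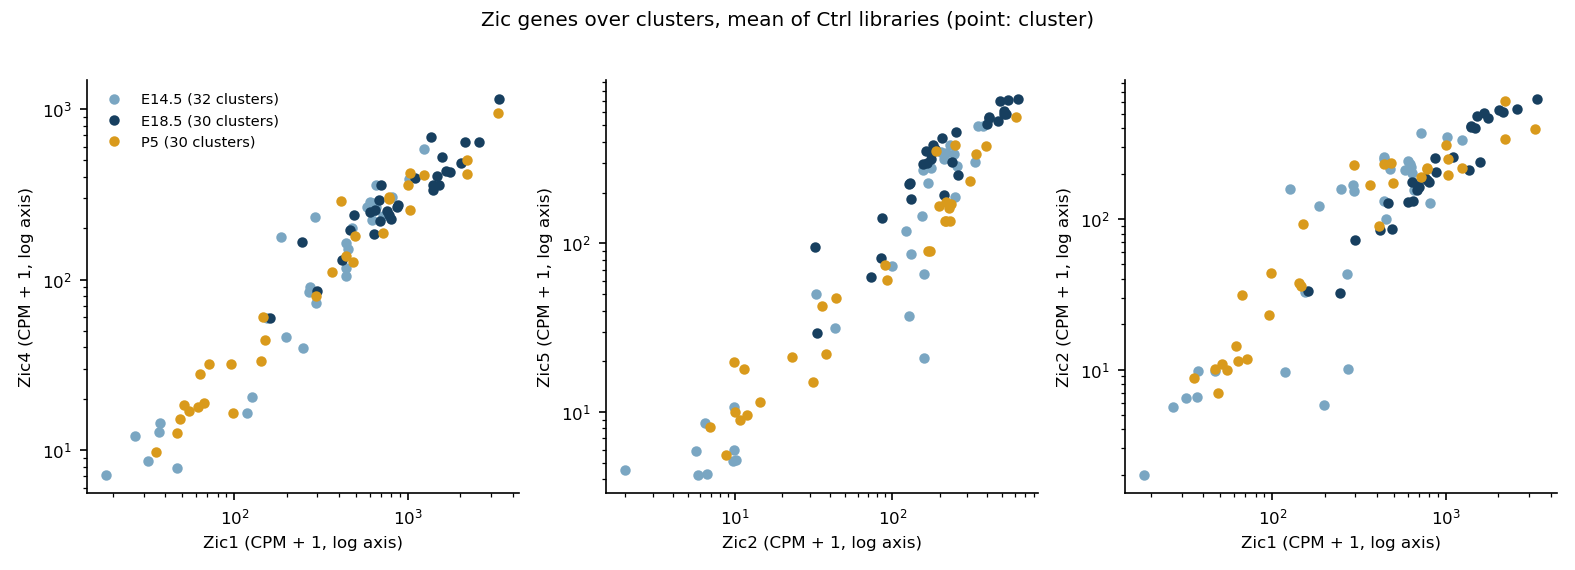
Zic levels over all clusters, as CPM + 1 on logarithmic axes, with 1 point per cluster (mean over control libraries) colored by stage. Zic1 and Zic4 lie close to a line, as do Zic2 and Zic5, and Zic1 against Zic2 is wider.

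Over 237 library-by-cluster sums of the 8 control libraries, log2 CPM of Zic1 and Zic4 had a Pearson r of 0.962 and Zic2 and Zic5 of 0.931. Members of different pairs had r of 0.864 to 0.901. At E18.5 alone, Zic1 and Zic2 had an r of 0.946, above those of Zic1 and Zic4 (0.925) and of Zic2 and Zic5 (0.91). At P5 alone, Zic1 and Zic5 had an r of 0.9434 and Zic2 and Zic5 of 0.9395. These points share libraries, depth and neighboring clusters, so r is a description. The genes outside the family with the most similar profiles, among 7061 genes, were Pax6 for Zic1 (r = 0.79), Zic4 (0.80) and Zic5 (0.89), and Dach1 for Zic2 (0.84). Pax6 is a transcription factor of rhombic lip derivatives that also served to choose the PN-like clusters at E14.5 and E18.5. Nfib and Zbtb18 were among the 5 most similar genes of each of the 4 members. In single PN-like cells of E18.5 controls thinned to 5000 UMIs, Zic4 was detected in 78.2% to 80.0% of cells with Zic1 and in 18.2% to 50.0% of the few without it. These shares pool subtypes that differ in both genes, and within ePN2-like cells they were 43.5% to 52.1% and 12.8% to 42.9%. Of the other pair, Zic5 was detected in 69.4% to 73.7% of cells with Zic2 and in 58.3% to 63.0% of those without it, and by Zic1 the shares of cells with Zic5 were 66.4% to 70.8% and 47.1% to 61.4%. The shares by Zic2 overlapped within ePN1-like (76.1% to 79.4% and 60.0% to 83.3%) and ePN3-like cells. Within ePN2-like cells they did not (62.1% to 70.3% and 36.4% to 55.4%). At P5 those of Zic5 with and without Zic2 overlapped, at 48.3% to 54.7% and 43.5% to 49.8%. For Zic2 at E18.5 the shares with and without Zic1 overlapped between libraries, at 65.3% to 70.1% and 58.8% to 87.5%. In E14.5 PN-like cells, Zic4 was in 79.1% to 84.2% of cells with Zic1 and in 58.1% to 66.7% of those without. These shares pool states as well. They overlapped within progenitor-like cells (70.6% to 78.4% and 33.3% to 75.0%) and the other states, except migrating neuron-1-like cells (69.2% to 80.0% and 33.3% to 50.0%).

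All 4 genes were higher at E18.5 than at E14.5 when all sorted control cells were compared (edgeR quasi-likelihood test, FDR under 0.05 and an absolute log2 change over 0.25, the same call as for every test here). In the 3 libraries of E14.5 and then of E18.5, Zic1 was at 606, 409 and 486 and at 1142, 1050 and 1093 CPM. Zic2 was at 193, 140 and 184 and at 278, 266 and 271 CPM, Zic4 at 213, 156 and 199 and at 322, 330 and 357 CPM, and Zic5 at 275, 143 and 198 and at 401, 382 and 380 CPM. No E14.5 library reached any E18.5 library for these genes. Such a separation is common, since in PN-like cells alone 41.7% of 10302 genes had every E18.5 library above every E14.5 library. The share in all sorted cells is not given here. The log2 change was 1.05 ± 0.13 (SE; FDR = 0.00109) for Zic1, 0.57 ± 0.12 (FDR = 0.00777) for Zic2, 0.75 ± 0.13 (FDR = 0.00316) for Zic4 and 0.84 ± 0.20 (FDR = 0.0123) for Zic5. Of all 10290 genes tested, 51.5% were called in this comparison, and 26.5% as higher, so a call is common. In sums over cells, more cells of a type and more RNA per cell cannot be told apart, and the make-up of the sort differed between stages. Granule lineage-like cells were 4.33% to 12.7% of control cells at E14.5 and 36.5% to 42.0% at E18.5, and PN-like cells 15.7% to 26.7% and 7.39% to 17.0%.

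Within a cell class the changes were unlike those of the whole sort, and some had the opposite sign. In PN-like cells alone, Zic5 fell by 0.73 on the log2 scale (FDR = 5.51e-05), from 380 ± 32.9 to 244 ± 7.57 CPM, and Zic2 fell by 0.42 (FDR = 0.00160), from 303 ± 18.9 to 242 ± 6.36 CPM. The changes of Zic1 (0.22, FDR = 0.0218) and Zic4 (0.092, FDR = 0.340) were under the limits of a call, and 63.6% of 10301 genes were called. The states that make up PN-like cells differed between the stages, and the part of this shift was not tested. Zic5 was at 293 CPM in E14.5 and 292 CPM in E18.5 intermediate progenitor-like cells. In migrating neuron-like cells it was at 468 (neuron-1) and 481 CPM (neuron-2) at E14.5 and at 280 CPM at E18.5. In granule lineage-like cells, Zic1 rose by 0.55 (FDR = 0.000714), from 566 ± 17.9 to 888 ± 29.1 CPM, with 43.3% of 10190 genes called. Zic2 (-0.12), Zic4 (0.22) and Zic5 (-0.062) did not pass there. Whether the stage change differed between these classes was not tested. Both fits were added after the data had been seen.

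**Figure D3:**
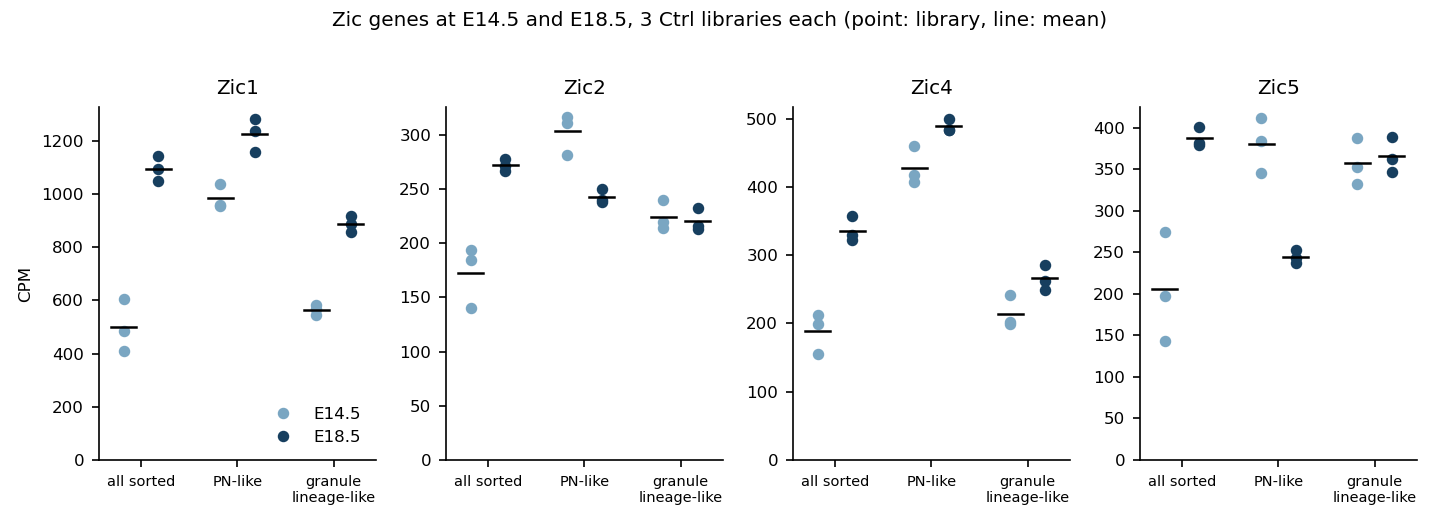
CPM of each Zic gene at E14.5 and E18.5 in control libraries, in all sorted cells, in PN-like and in granule lineage-like cells, with points for libraries and lines for the mean of 3. In all sorted cells the E18.5 points lie above the E14.5 points for the 4 genes, while in PN-like cells those of Zic2 and Zic5 lie below.

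Genotype was then compared in 10 groups of cells, all sorted cells, granule lineage-like cells and PN-like cells or states at each stage, which made 40 tests of the 4 genes, and 0 of them were called by edgeR. Log2 changes in Atoh1S193A/- cells lay between -0.14 and 0.16, with SEs of 0.055 to 0.298, and the lowest FDR was 0.830. A single test, that of Zic2 in E18.5 PN-like cells, had an unadjusted p under 0.05 (0.0340), and DESeq2 called 0. The largest SE was that of Zic5 in E14.5 differentiated neuron-like cells, so modest differences there were not detectable with 3 libraries per genotype.

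Over all genes, edgeR without the littermate block called 0.0201% in E18.5 PN-like, 0.0395% in E14.5 progenitor-like and 0.12% in E14.5 intermediate progenitor-like cells and 0.00977% in all sorted cells of E14.5. It called 0% in the other 6 groups, where DESeq2 called 0 to 52 genes and 121 to 355 genes had an unadjusted p under 0.05. In all sorted cells of E14.5, where edgeR called 1 gene, DESeq2 called 238 (2.32%), and 1184 had an unadjusted p under 0.05 by edgeR. With littermates as blocks, edgeR called 1800 genes (17.6%) in that group and 0 to 226 in the other 9, and 0 of the 40 tests of the Zic genes. For the difference of the genotype effect between the stages in all sorted cells it also called 0% of 10531 genes, with 797 at an unadjusted p under 0.05 and 72 called by DESeq2, and 1523 were called with littermates as blocks. The 4 genes had log2 values of -0.23 to 0.04 in that comparison, none past the threshold (lowest FDR 0.878).

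Small differences in 1 direction were nevertheless present in E18.5 PN-like cells. Zic2 was at 239.6, 249 and 238 CPM in the control and 221, 217 and 222 CPM in the Atoh1S193A/- libraries. Zic1 was at 1284, 1236 and 1159 against 1137, 1142 and 1122 CPM, and Zic5 at 237.3, 252 and 243 against 237.1, 216 and 227 CPM. For these 3 genes the genotypes did not overlap in CPM, and each Atoh1S193A/- embryo was below its littermate, whereas Zic4 overlapped (489 ± 9.39 against 489.5 ± 31.5 CPM, n = 3). For Zic5 both points rest on 237.3 against 237.1 CPM in the first pair. Plain CPM leaves out the TMM factors of these 2 libraries (1.02275 and 1.01962), which differ by more in proportion. With CPM divided by these factors, the order of this pair turns and Zic5 overlaps between the genotypes. Over all genes, 3.56% did not overlap with lower values in Atoh1S193A/-. The means were 0.908 of control for Zic2, 0.925 for Zic1 and 0.928 for Zic5, and an exact two-sided permutation test gave p = 0.1 for each, the smallest that 3 against 3 libraries allow. Groups of 3 that do not overlap always give this value, so the test, which leaves out the pairing, adds nothing to the lack of overlap. For Zic2 the log2 change was -0.14 ± 0.058 (edgeR, FDR near 1, and 0.248 with littermates as blocks). Of the marker lists of other cell types, that of endothelial cells did not overlap between the genotypes in these cells, with its 5 markers summing to 2.05 to 2.65 CPM in control and 1.22 to 1.41 CPM in Atoh1S193A/- libraries, and its part in the differences was not tested.

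ePN1-like cells, in which Zic2 and Zic5 are highest, also differed in share between the genotypes. They were 16.2%, 15.8% and 20.1% of PN-like cells in the control and 5.48%, 5.26% and 7.87% in the Atoh1S193A/- libraries, and ePN2-like cells, lowest in Zic1 and Zic4, were 20.3%, 22.2% and 28.005% against 25.6%, 30.2% and 32.9%. ePN3-like cells, highest in mean Zic4, were 17.5%, 13.8% and 18.4% against 16.1%, 17.9% and 23.6%. The pooled mean of Zic4 was 488.9 CPM in control and 489.5 CPM in Atoh1S193A/- libraries. The part of these shares in the differences was not tested. In PN-like cells other than ePN1-like, Zic1 overlapped between the genotypes (1152 ± 88.9 against 1109 ± 18.8 CPM), as did Zic5 (228 ± 8.49 against 221 ± 11.7 CPM). Zic4 overlapped too, at 457 ± 14.8 against 484 ± 32.5 CPM. It was higher in Atoh1S193A/- in 3 of 3 pairs, a count given without its share over all genes. Zic2 did not overlap, at 225, 230 and 218 against 216, 214 and 215 CPM, 0.957 of the control mean, where 2.49% of genes did not overlap with lower values. Within ePN1-like cells Zic2 was at 334 ± 16.1 against 305 ± 24.5 CPM and overlapped, while Zic4 was at 649.9, 641 and 663 CPM in control and 547, 605 and 585 CPM in Atoh1S193A/- libraries, without overlap, as were 5.65% of genes with lower values. These Atoh1S193A/- values rest on 34, 15 and 49 cells. The Nr2f2 cluster, low in Zic4, was left out after the data had been seen, so the values without it are no separate support. Without it Zic4 was at 730.3 ± 9.79 against 660 ± 65.0 CPM (n = 3). The nearest libraries were at 719 CPM (control) and 700 CPM (Atoh1S193A/-, 13 cells). The Atoh1S193A/- libraries then held 30, 13 and 40 such cells, and the share of all genes without overlap was not counted there.

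**Figure D4:**
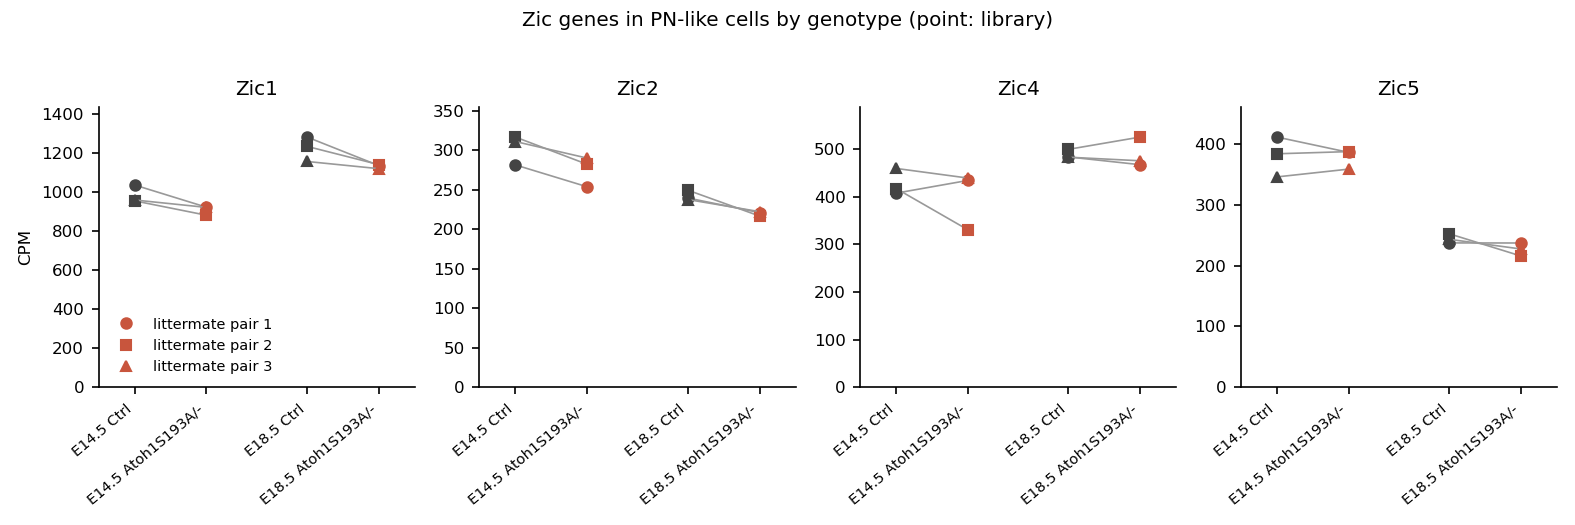
Zic levels in PN-like cells as CPM per library, with 1 panel per gene, control and Atoh1S193A/- libraries at E14.5 and E18.5 and littermates joined by lines. At E18.5 the 3 control libraries lie above the Atoh1S193A/- libraries for Zic1, Zic2 and Zic5 by small amounts, almost meeting for Zic5, and the genotypes overlap for Zic4.

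In E14.5 PN-like cells Zic1 was at 1038, 957 and 961 CPM in control and 924, 883 and 923 CPM in Atoh1S193A/- libraries, which did not overlap. The mean was 0.924 of control (exact permutation test, p = 0.1, the value that any such lack of overlap gives). Of 10106 genes, 11.4% did not overlap with lower values. Zic2 was lower in 3 of 3 littermate pairs but overlapped (303 ± 18.9 against 275 ± 19.1 CPM), and Zic5 was at 380 ± 32.9 and 377 ± 16.3 CPM (n = 3). The states had other values. In progenitor-like cells Zic1 was at 649 ± 59.7 in control and 702 ± 85.8 CPM in Atoh1S193A/- embryos, in migrating neuron-2-like cells at 1034 ± 78.2 and 1081 ± 49.0 CPM and in differentiated neuron-like cells at 1262 ± 139 and 1250 ± 114 CPM, and the genotypes overlapped in each. The mean of Zic2 was 1.01 to 1.11 of control within the states, with overlap. In migrating neuron-1-like cells (1.11) Zic2 was higher in 3 of 3 pairs. The make-up of the PN-like cells also differed between the genotypes. Progenitor-like cells, which are low in Zic1, were 8.54%, 11.97% and 5.99% of PN-like cells in control and 27.8%, 31.4% and 31.5% in Atoh1S193A/- libraries. Differentiated neuron-like cells, which are highest in it, were 29.6%, 23.9% and 41.7% against 23.8%, 13.2% and 23.3%. Summed marker lists of neurons and of other cell types were read in the same PN-like cells. The 6 astrocyte markers, among them Slc1a3, which also marks progenitors, summed to 160 to 194 CPM in control and 255 to 290 CPM in Atoh1S193A/- libraries, with at most 1 marker at 0. The 5 endothelial markers summed to 2.32 to 7.55 and 9.58 to 14.9 CPM and the 5 choroid plexus markers, which overlapped, to 10.4 to 40.6 and 31.0 to 225 CPM. The 5 glutamatergic neuron markers summed to 369 to 405 CPM in control and 283 to 307 CPM in Atoh1S193A/- libraries. The part of these shifts in the difference was not tested.

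In granule lineage-like cells of E18.5, Zic5 was at 366 ± 21.8 CPM in control and 407 ± 56.1 CPM in Atoh1S193A/- embryos, higher in 3 of 3 pairs with overlapping groups. Zic4 was lower in 3 of 3 pairs, also with overlap (266 ± 18.1 against 262 ± 19.6 CPM), and Zic2 was at 220.4 ± 10.3 and 248 ± 39.8 CPM (n = 3). For these counts of pairs the share over all genes is not given. At E14.5 the 4 genes were within 1.03-fold of the control mean in these cells, and the genotypes overlapped for each. In all sorted cells the largest change was that of Zic5 at E14.5 (log2 change 0.16 ± 0.26, edgeR, FDR = 0.840).

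**Figure D5:**
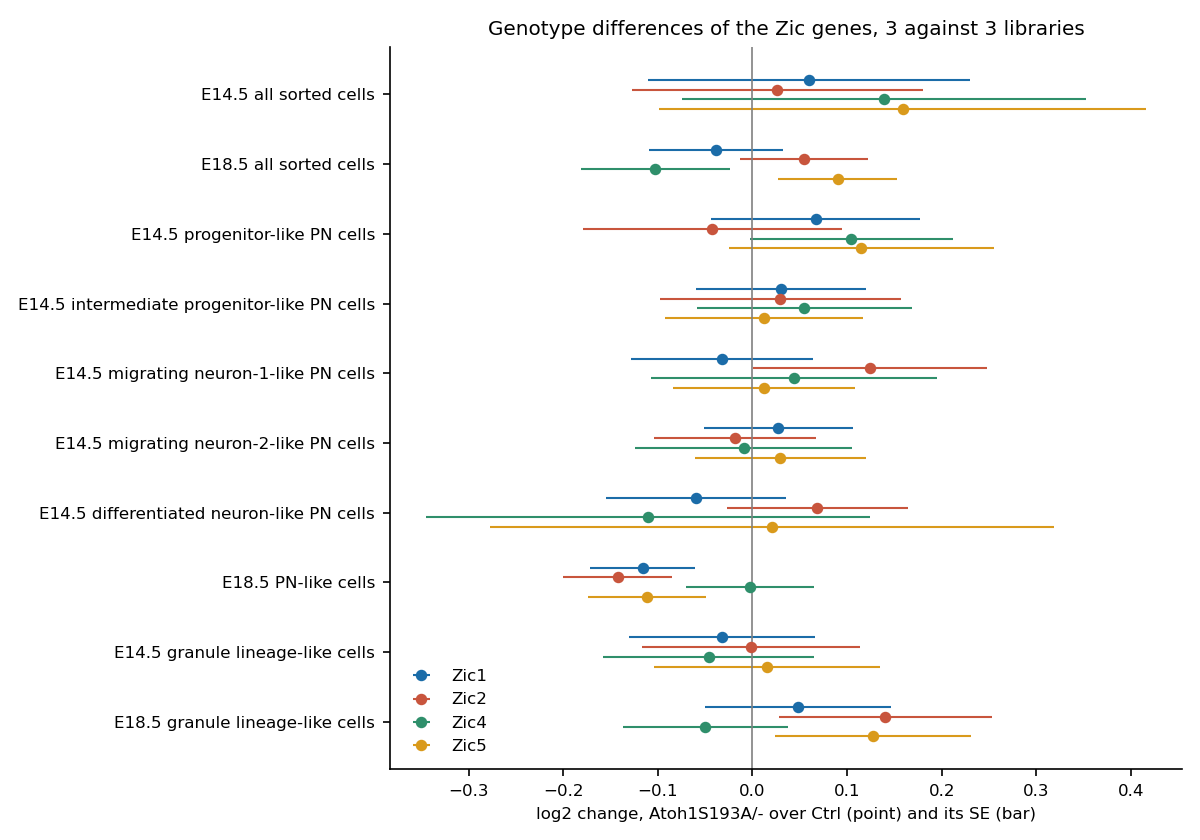
Log2 change of the Zic genes in Atoh1S193A/- against control cells in each of the 10 groups of cells, with bars of 1 SE and a line at 0. Points lie within 0.16 of 0 in each group, and the widest bars are those of E14.5 differentiated neuron-like and all sorted cells.

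Relatives and partners of the Zic genes were read from lists of hedgehog signaling and zinc finger relatives, of dorsal neural tube and rhombic lip patterning and of midline crossing and laterality. In the stage comparison, 6 of 8 tested genes of the first list rose and 0 fell (median log2 change 1.44, against 0.01 over all genes), where 26.5% of all genes rose and 25.1% fell. Among them were the zinc finger factors Gli1 (5.71) and Gli2 (2.74), the hedgehog receptor Ptch1 (1.67) and the Gli regulator Sufu (1.21). Of 11 tested patterning genes, 1 rose, Pax6 (1.05), and 8 fell (median -1.51), among them the dorsal neural tube factors Msx3 (-5.00) and Msx2 (-4.36), Id3 (-4.27) and the rhombic lip factor Olig3 (-3.17). Of 14 tested genes of midline crossing, 5 rose, with the netrin receptor Unc5b (2.25) and Ntn1 (1.82) at the top, and 5 fell, with Robo3, the receptor that lets precerebellar axons cross, at -3.39 and Ephb1 at -0.81, while 51.5% of all genes were called in either direction. These sums carry the same shift in cell make-up as the Zic values. Between genotypes, 1 gene of the 3 lists was called in the 10 comparisons, the patterning factor Msx1 in E14.5 intermediate progenitor-like cells (0.71 ± 0.11, edgeR, FDR = 0.0427), where 0.12% of genes were called. This call was lost at a Leiden resolution of 2.0, where 0 genes were called higher.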

How the data were processed

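Single-cell RNA sequencing was analysed in 14 libraries of sorted Atoh1-lineage cells. The deposited files hold counts of UMIs for each gene and barcode, which the authors made with Cell Ranger against mm10 with WPRE added and did not normalize. Per the file headers, 2 libraries (E14.5 control 1 and 2) came from Cell Ranger 3.1.0 and 12 from 5.0.1. The submitters' processing notes name Cell Ranger 5.0.1 and mm10.

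Barcodes with at least 1000 genes and under 5% mitochondrial UMIs were kept, and the 7.5% with the highest Scrublet scores were removed in each library. The stricter mitochondrial limit in the study's methods could not be applied as stated, since the median share per library was 3.25% to 5.09% of UMIs, and 5% was used in its place. Clustering was done per stage in scanpy 1.11.5 (counts scaled to 10000 per cell, 2000 variable genes, 30 components, 15 neighbors, Leiden resolution 1.0) without Zic genes and without the listed genes. The markers of the PN lineage at E14.5 and E18.5 and those of its states and subtypes follow the study. The P5 rule for PN-like cells was set here, and markers of other cell types are common marker genes. The limits on all of them were set after cluster means had been seen. A cluster stayed unnamed where its 10 leading genes held more markers of another name, so some PN-like clusters carry a name on 1 or few leading markers. The family members, the gene lists and the rule for named genes were chosen with earlier results of these data known. The rule takes each member, up to 5 called genes of each list with the largest change, the 5 genes of mean CPM of at least 20 most correlated with each member, and leading genes of a described cluster. A few genes that the rule would name are not reported here.

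UMIs were summed per library where it held at least 10 cells of a group and compared with edgeR 4.0.16 in R 4.3.3 (TMM, quasi-likelihood F test, Benjamini-Hochberg adjustment), after genes detected in under 10% of cells of both groups were dropped. The study tested cells, and here libraries were tested. SEs are the absolute log2 change divided by the square root of F. DESeq2 1.42.0, other normalization, filters, clustering, cell filters, each library left out and the littermate block were alternatives. Embryos with the same number are littermates, and same-numbered libraries correlated at 0.296 to 0.892 in their deviations from the genotype means over the 10 comparisons. The test was checked on simulated counts.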

Additional observations from a re-analysis of the deposited data

How the results depend on the processing

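In the 10 genotype comparisons, in which edgeR without blocks called 0 to 11 genes of the whole table, 0 Zic genes were called under each of the 532 alternatives over genes and settings, and the sign of the small changes turned in 77. In the stage comparison, 4 Zic genes were called in all sorted cells, 2 in PN-like cells alone (Zic2 and Zic5, both lower at E18.5) and 1 in granule lineage-like cells alone (Zic1). There the change turned to -0.42 and -0.12 for Zic2 and to -0.73 and -0.062 for Zic5, and the cause was not tested. Without any 1 library, 4 Zic genes stayed called. All deposited barcodes raised the stage change of Zic2 from 0.57 to 0.96 and of Zic5 from 0.84 to 1.28, and a mitochondrial limit of 10% raised them to 0.94 and 1.26. With the replicate block (littermates paired), 0 Zic genes were called in each genotype comparison, as without it, while genes called over the whole table went from 1 to 1800 in E14.5 all sorted cells and from 0 to 1523 for the difference between the stages. The log2 change of Zic2 in E18.5 PN-like cells stayed between -0.17 and -0.12 without 1 library. With 3 libraries per genotype and SEs of up to 0.298, small genotype differences of the Zic genes were not detectable.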
